A study of Mus musculus with 12 samples.

Results

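The comparison described here sets 2 control groups against each other, Blank against NC, in RNA labelled as mouse lung cancer from models made with LLC (Lewis lung carcinoma), a tumour cell line that can be transplanted between mice. It uses 6 of the 12 libraries of the series, 3 of each group, taken by their group labels and compared over every gene that the counts allowed. In NC, the LLC cells had received a negative control lentivirus before tumours were made. In Blank, mice were given physiological saline, as the counterpart of mice given a preparation called SFD@M, and the labels name no lentivirus for their cells. Both groups are labelled wild type (WT), with lung cancer as the tissue. Codes in the titles of Blank samples start with KD, although the labels put these samples in Blank and name saline as their treatment. Strain, age and tumour site of the mice, and how long the tumours grew, are unstated in the sources used here. The 2 groups differ at once in the experiment they belong to, in the lentivirus and in the saline, and these differences cannot be told apart. The labels do not say whether libraries of 1 group are from separate mice, so p-values here measure the spread between libraries alone, and that spread may be technical.

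Tumour cells secrete chemokines that draw neutrophils and monocytes, and many of these genes are switched on by the transcription factor NF-kB. When amino acids run short or misfolded protein builds up, cells phosphorylate the initiation factor eIF2, and the transcription factor ATF4 then turns on genes for amino acid uptake and synthesis, which is known as the integrated stress response. SREBP transcription factors turn on genes of sterol and fatty acid synthesis. The collagens, laminins and fibronectin that tumour cells deposit, and the proteases that cut them, form the matrix through which carcinoma cells move.

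The 6 libraries held 16062806 to 17247348 counts each, and 11643 to 11685 genes reached 1 CPM (counts per 1000000 counts) in NC libraries and 11295 to 11305 in Blank libraries. Otub1, the target of the knockdown arm elsewhere in the series, stood at 76.4, 73.9 and 69.9 CPM in NC and 77.9, 73.5 and 73.6 CPM in Blank and did not differ past the threshold (0.03 ± 0.04 on the log2 scale, adjusted p = 0.468, exact two-sided permutation p = 0.6, where 3 against 3 can reach 0.1 at best). Markers of leukocytes, endothelium and lung epithelium were scarce in both groups although the tissue label is lung cancer. The sources used here do not say whether these libraries were made from whole tumours, sorted cells or cultured cells, and the levels below are those of this RNA. The 22 leukocyte markers summed to 36.2 to 38.7 CPM in NC and 9.05 to 9.47 CPM in Blank, against 6424 to 14437 and 7182 to 8511 CPM in the OTUB1_KD and SFD@M groups. Adgre1, Cd3e, S100a9 and Tyrobp, used as markers of macrophages, T cells, neutrophils and myeloid cells, were the 4 of these 22 with 0 counts in all 6 libraries. Other markers had counts: Cd8a, of T cells, had 36 in NC and 10 in Blank, Csf1r 5 and 1, Ptprc 3 and 1 and Itgax 8 and 9. Means lay below 1 CPM for 18 of the 22 in NC and 19 in Blank. The endothelial list (13 genes) summed to 40.1 to 40.9 CPM in NC and 19.3 to 19.9 in Blank, and the alveolar and airway list (13 genes) to 16.7 to 19.7 and 12.0 to 12.5. In each list 1 gene carried most of the sum: Egfl7 (means of 28.4 CPM in NC and 12.0 in Blank) and Hopx (15.5 and 9.88). Of 7 endothelial markers tested 4 fell and 3 did not pass, and Ramp2 had a higher mean in Blank (2.29 and 2.71 CPM). Vwf, with 72 counts in NC and 16 in Blank, passed the filter on low counts through NC alone, so its direction was fixed by passing. The fibroblast and smooth muscle list (12 genes, Tcf21 at 0) was not scarce, at 2293 to 2402 CPM in NC and 2759 to 2842 in Blank, against 4476 to 5652 in OTUB1_KD and 2459 to 3369 in SFD@M. Col3a1 carried most of that sum. Of its 9 tested members 6 fell, 4 at least 2-fold, and 2 rose, with a median of -0.93. The erythroid and muscle list (10 genes) stayed at or below 3.24 CPM. In bulk RNA, fewer cells of a type and less RNA per cell cannot be told apart.

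Libraries within a group were nearly alike. Across genes, on log2(CPM + 1), they correlated at r = 0.999, and libraries of the 2 groups at 0.990, where genes are not independent replicates. The variance of counts between libraries was 1.396 to 2.04 times that of sampling within NC, 1.33 to 1.58 times within Blank, and 56.4 to 59.1 times between the groups. Of 12087 genes tested 8977, or 74.3%, passed an adjusted p of 0.05 in edgeR's quasi-likelihood test. Of all genes tested 37.0% were called higher in Blank and 37.2% lower, and for 75.3% the libraries of the groups did not overlap. Counts of called members are to be read against these shares, and size separated the directions: 175 genes (1.45%) were called at least 2-fold higher in Blank and 894 (7.4%) at least 2-fold lower, 8.84% in all. On log2(TPM + 1), a scale that understates the change of low genes, these 2-fold counts were 95 and 327. The log2 fold change, Blank against NC throughout, had a median of -0.0003 over all genes tested, with 5% of genes below -1.28 and 5% above 0.66. Fitting all 12 libraries together takes the spread from the other 2 groups as well, and its filter passed 15304 genes. Of these 760 were called higher and 1939 lower, smaller shares than those above. Counts from that fit, given with the gene groups below, are out of the list members it tested, often more than here. They are to be read against its 760 and 1939 of 15304 genes. It tested 25 chemokines against 14, 28 collagen chains against 23 and 30 matrix proteases against 22. Among the 31 receptors, 27 NRF2 targets, 23 heat shock chaperones and 27 replication genes it tested, calls were few. Those counts are not results about these lists. Of the 295 genes that the naming rules and the text give, 118 lost their call in that fit, stated below for only some. Levels are CPM with TMM scaling, listed for replicates 1, 2 and 3 of a group, and a log2 fold change is followed by its standard error.

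**Figure D1:**
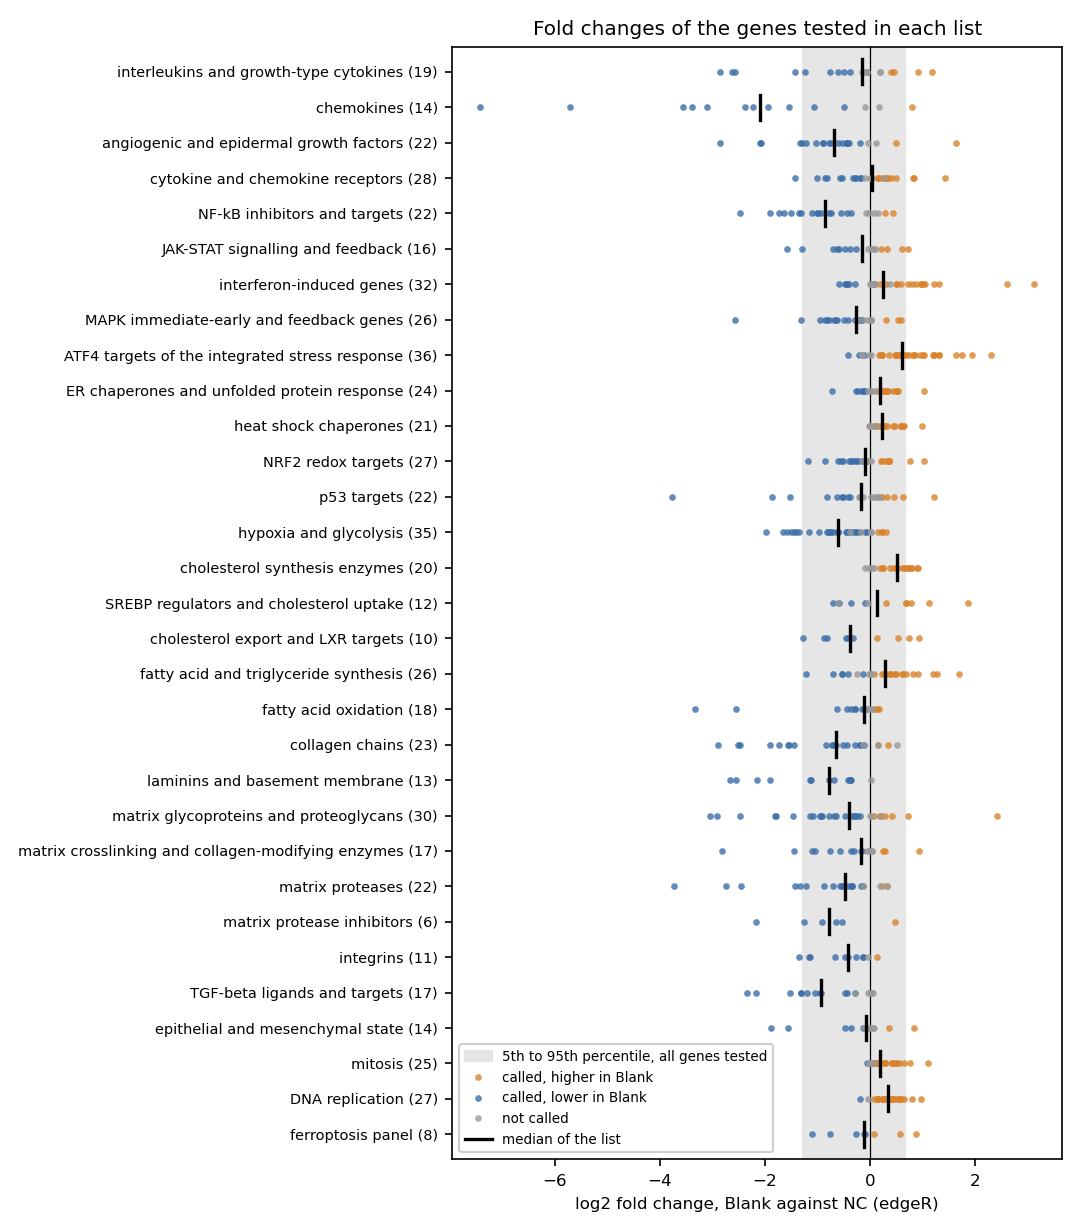
Each point is 1 gene that passed the filter on low counts, placed by its log2 fold change (Blank against NC, x axis) in the row of its gene list, with the number of genes tested in brackets. Black ticks are list medians and the grey band spans the 5th to 95th percentile of all genes tested (-1.28 to 0.66). Chemokines lie farthest to the left, with a median of -2.08, and ATF4 targets farthest to the right, with a median of 0.61.

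The chemokines that attract neutrophils were far lower in Blank than in NC. Cxcl5 (Entrez gene 20311), whose product binds the neutrophil receptor CXCR2, stood at 295, 309 and 303 CPM in NC and 1.51, 1.92 and 1.87 CPM in Blank. Its mean was 171-fold lower in Blank (-7.42 ± 0.06, adjusted p = 4.57e-84), the largest fall by fold among the genes named by level and separation of the groups. Cxcl1 (14825), another ligand of CXCR2, stood at 129.5, 132 and 129 CPM in NC and 10.1, 11.5 and 11.7 CPM in Blank (-3.55 ± 0.05, adjusted p = 2.37e-66). Every NC library lay far above every Blank library for both genes. Cxcl2 was at 20.5, 20.03 and 22.6 CPM in NC and 1.80, 3.37 and 2.22 CPM in Blank (-3.09 ± 0.12), and Cxcl3 at 21.8, 15.6 and 21.5 CPM in NC and 0.406, 0.407 and 0.292 CPM in Blank (-5.71 ± 0.20). With 976 counts in NC and 19 in Blank, Cxcl3 passed the filter on low counts through NC alone, so the direction of its change was fixed by passing. Ppbp, the precursor of a further CXCR2 ligand that platelets also store, is not in the chemokine list and entered by its size of change. It stood at 238, 238 and 247 CPM in NC and 15.1, 16.2 and 15.1 CPM in Blank (-3.96 ± 0.04, adjusted p = 8.11e-76).

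Cxcl1, Cxcl2 and Cxcl3 are shown with the stretch of promoter that holds an NF-kB-type sequence, because, of the listed chemokines above 2 CPM in NC with an entry in the promoter table, they fell furthest. The sequences are from RefSeq (build GRCm38.p6, plus strand), lie chr5:90891096-90891195 for Cxcl1, chr5:90903743-90903842 for Cxcl2 and chr5:90785950-90786049 for Cxcl3, and end 50, 57 and 52 bases before the start of the gene. Capitals mark each match to GGG and TTTCC spaced by any 2 bases, read on both strands.
Cxcl1: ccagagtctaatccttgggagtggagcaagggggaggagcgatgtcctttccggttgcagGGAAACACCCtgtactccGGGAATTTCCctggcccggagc
Cxcl2: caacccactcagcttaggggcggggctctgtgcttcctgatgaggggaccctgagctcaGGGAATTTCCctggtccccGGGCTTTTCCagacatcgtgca
Cxcl3: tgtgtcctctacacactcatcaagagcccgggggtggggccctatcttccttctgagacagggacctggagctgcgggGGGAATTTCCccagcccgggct
Cxcl1 and Cxcl2 each held a pair of matches and Cxcl3 held 1. Over windows from 250 bases before to 50 after the start, the motif occurred in 5 of the 9 tested chemokines with an entry (Cxcl1, Cxcl2, Cxcl3, Ccl9 and Ccl20), in 2.01% of all tested genes with one and in 1.63% of all windows in the table. Ccl9, which holds it too, did not pass the test (0.17 ± 0.22, adjusted p = 0.507). A match is a description of the letters and not a site shown to be bound.

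The other chemokines mostly went the same way. The list held 26 genes, of which 25 were in the table and 14 passed the filter on low counts. 11 of the 14 fell, 10 of them at least 2-fold, 1 rose and 2 did not pass. Cxcl3, whose direction was fixed by passing the filter, is among those that fell. In the fit of all 12 libraries, which tested 25 of them, 10 fell and 0 rose. Cx3cl1, a membrane-bound chemokine for monocytes and lymphocytes, was at 84.9, 86.6 and 85.2 CPM in NC and 17.9, 18.4 and 18.4 CPM in Blank (-2.23 ± 0.05). Cxcl10, which attracts activated T cells through CXCR3, was at 9.36, 10.8 and 10.0 CPM in NC and 2.55, 2.85 and 2.45 CPM in Blank (-1.94 ± 0.13). The monocyte chemokines moved less. Ccl7 fell by 1.06 on the log2 scale, to 6.67, 8.77 and 7.99 CPM from 15.3, 16.5 and 17.0, and Ccl2 stood at 129, 122 and 134 CPM in NC and 87.4, 93.3 and 92.8 CPM in Blank (-0.49 ± 0.03). Ccl25, a chemokine of gut and thymus, was the 1 that rose, from 5.94 to 10.3 CPM (0.80 ± 0.11). Ccl20 and Ccl5 were called lower but did not exceed 1.48 CPM in any library. Leukocytes also make several of these chemokines. Of their 22 markers 18 were too low to test, and the 4 that passed the filter were lower in Blank, with a median of -2.12. Mean levels were 24.0 CPM in NC and 2.60 CPM in Blank for Cd74, 6.30 and 3.10 for Ly6g, 3.57 and 2.40 for Lyz2 and 1.26 and 0.0582 for H2-Ab1. With 63 counts in NC and 3 in Blank, H2-Ab1 passed the filter through NC alone, so the direction of its change was fixed by passing. Adgre1, Cd3e, S100a9 and Tyrobp had 0 counts in both groups, while Cd8a had 36 counts in NC and 10 in Blank. The part of leukocytes in the result was not tested.

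**Figure D2:**
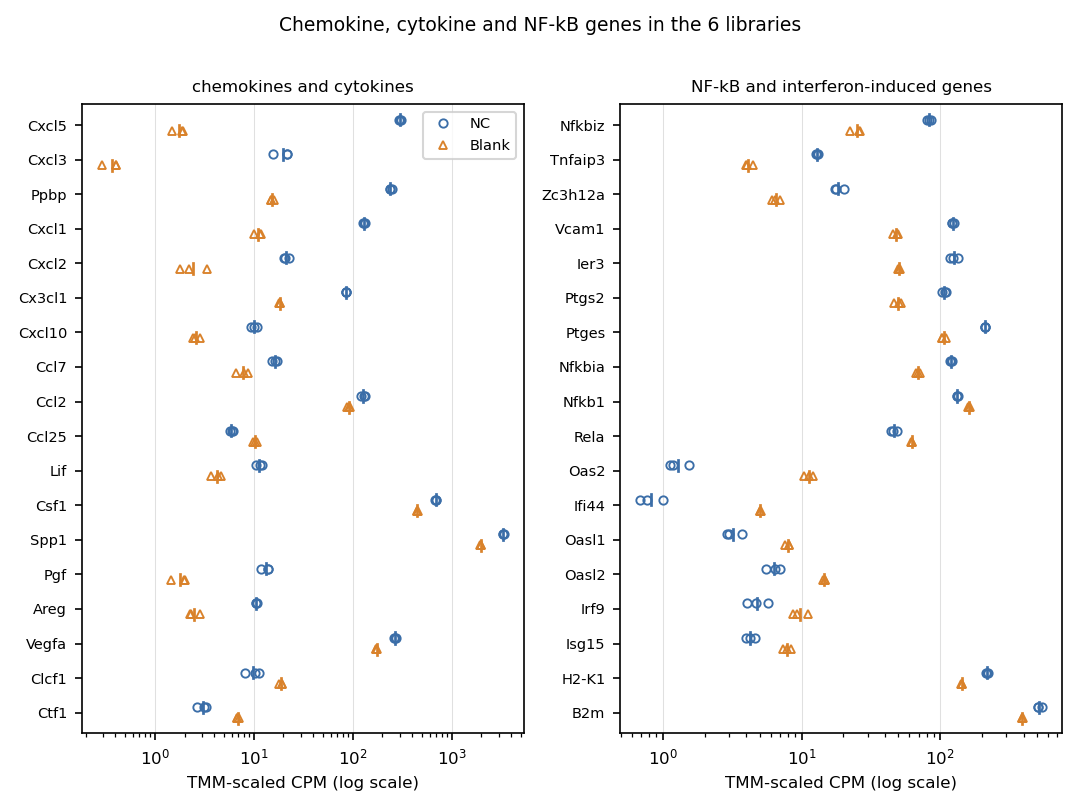
Level of each gene in each library (TMM-scaled CPM, log axis), with circles for the 3 NC libraries, triangles for the 3 Blank libraries and a tick at each group mean. Neutrophil chemokines at the top left differ most, with Cxcl5 near 300 CPM in NC and under 2 CPM in Blank, while Oas2 and Ifi44 on the right are higher in Blank.

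Interleukins and growth-type cytokines split. Of 30 listed, 19 passed the filter, and 10 fell, 4 rose and 5 did not pass, with a median of -0.16 (all 12 libraries: 6 fell, 1 rose). Spp1 (osteopontin), a secreted phosphoprotein that binds integrins and CD44, was at 3312, 3333 and 3354 CPM in NC and 1983, 1936 and 1988 CPM in Blank (-0.76 ± 0.02). Csf1, the growth factor of macrophages, was at 700.3, 673 and 695.5 CPM in NC and 445, 452 and 455 CPM in Blank (-0.61 ± 0.02), and neither gene passed in the fit of all 12 libraries. Lif, a cytokine of the interleukin-6 family, stood at 11.5, 10.6 and 12.0 CPM in NC and 4.64, 3.72 and 4.32 CPM in Blank (-1.43 ± 0.11). Within that family 2 members went the opposite way. Clcf1 stood at 8.11, 11.4 and 10.3 CPM in NC and 19.2, 19.3 and 17.9 CPM in Blank (0.92 ± 0.09) and Ctf1 (cardiotrophin 1) at 3.18, 2.67 and 3.32 CPM in NC and 6.78, 7.14 and 6.82 CPM in Blank (1.18 ± 0.14). Csf2 (GM-CSF) and Il33 were called lower from levels that did not exceed 1.62 CPM in any library. Mif, an abundant cytokine of tumour cells, was called lower by a small step (-0.07 ± 0.03, adjusted p = 0.0248) with overlapping groups, and lost the call without NC replicate 2 (adjusted p = 0.176) and without Blank replicate 2 (adjusted p = 0.502).

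Growth factors for vessels and epithelium were mostly lower in Blank. Of 27 listed, 22 were tested, and 18 fell against 2 that rose, with a median of -0.68 (all 12 libraries: 11 fell, 0 rose). Pgf (placental growth factor), a ligand of the VEGF receptor FLT1, stood at 11.9, 13.8 and 14.1 CPM in NC and 2.03, 1.97 and 1.46 CPM in Blank (-2.86 ± 0.13). Vegfa, the main angiogenic factor and a gene induced by low oxygen, stood at 262, 267.5 and 273 CPM in NC and 175, 174 and 174 CPM in Blank (-0.62 ± 0.03). No library of Blank reached the lowest NC library for either gene. The EGF receptor ligands Areg (from 10.6 to 2.48 CPM, -2.10 ± 0.13), Hbegf (from 15.1 to 7.42 CPM, -1.03 ± 0.09) and Btc (from 2.39 to 1.03 CPM, -1.21 ± 0.23) fell. Fgf21, a hormone-like growth factor that ATF4 induces, was at 0.749, 0.892 and 0.771 CPM in NC and 1.91, 2.67 and 2.92 CPM in Blank (1.63 ± 0.24) and was 1 of the 2 that rose. It did not pass in the fit of all 12 libraries (adjusted p = 0.0572).

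The receptors for these ligands showed no common direction. Of 28 tested, 12 rose (42.9%) and 11 fell (39.3%), close to the 37.0% and 37.2% over all genes, and the median was 0.04 (all 12 libraries: 4 fell, 3 rose). Il6st (gp130), the shared receptor chain of the interleukin-6 family, rose from 180.2 to 228 CPM (0.34 ± 0.03). Il20rb, a receptor chain for cytokines of the interleukin-20 family, rose from 3.63 to 9.75 CPM (1.43 ± 0.12). Cxcr4, the receptor of CXCL12, fell from 3.67 to 1.36 CPM (-1.43 ± 0.19), and Tnfrsf1b (TNF receptor 2) from 33.4 to 16.7 CPM (-1.001 ± 0.06).

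Inhibitors and targets of NF-kB fell as a group. All 22 listed genes were tested, and 16 fell, 9 of them at least 2-fold, 2 rose and 4 did not pass, with a median of -0.86 (all 12 libraries: 11 fell, 0 rose). Nfkbiz (IkB-zeta), a nuclear cofactor needed for a subset of NF-kB targets, stood at 80.5, 83.3 and 85.1 CPM in NC and 26.4, 25.9 and 22.4 CPM in Blank (-1.74 ± 0.05, adjusted p = 1.1e-45). The feedback inhibitors Tnfaip3 (A20), at 13.1, 12.8 and 12.9 CPM in NC and 4.06, 3.95 and 4.43 CPM in Blank (-1.64 ± 0.11), and Nfkbia (IkB-alpha), at 121, 118 and 120.0 CPM in NC and 67.0, 71.6 and 68.8 CPM in Blank (-0.79 ± 0.03), were lower too. Zc3h12a, a ribonuclease that degrades cytokine messages, fell from 18.5 to 6.53 CPM (-1.50 ± 0.09). Prostaglandin synthesis was represented by Ptgs2 (cyclooxygenase 2), at 103.5, 108 and 109.6 CPM in NC and 46.7, 50.7 and 52.0 CPM in Blank (-1.11 ± 0.04), and Ptges, at 208, 210.5 and 209.8 CPM in NC and 104, 111 and 103 CPM in Blank (-0.99 ± 0.03). The adhesion molecule Vcam1 stood at 125, 121 and 121 CPM in NC and 45.5, 48.4 and 49.6 CPM in Blank (-1.36 ± 0.04). In all of these genes the groups were apart. The 2 that rose were the subunit genes themselves, Rela from 46.2 to 62.2 CPM (0.43 ± 0.04) and Nfkb1 from 133 to 162 CPM (0.28 ± 0.03). In the promoter windows the motif shown above occurred in 3 of the 17 tested NF-kB list genes with an entry (Nfkbia, Nfkb2 and Tnfaip3).

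Genes of JAK-STAT signalling went both ways. In that list 8 of 16 tested genes fell (50%) and 4 rose (25%), beside 37.2% and 37.0% of all genes, with a median of -0.15 (all 12 libraries: 6 fell, 2 rose). Pim1, a kinase gene induced by STAT3 and STAT5, was at 47.1, 45.9 and 46.7 CPM in NC and 16, 17.3 and 13.7 CPM in Blank (-1.57 ± 0.06), and Stat3 at 86.1, 85.8 and 90.1 CPM in NC and 60.5, 58.4 and 54.5 CPM in Blank (-0.60 ± 0.04). Stat6, which interleukins 4 and 13 activate, was at 90.3, 96.8 and 95.4 CPM in NC and 154, 157 and 155 CPM in Blank (0.72 ± 0.03) and rose, while Socs3, a STAT3 feedback gene, did not pass (0.09 ± 0.04, adjusted p = 0.0523) but was called higher without NC replicate 1, Blank replicate 1 or Blank replicate 2 (adjusted p of 0.0087, 0.0312 and 0.0386). Among 26 immediate-early and feedback genes of the MAP kinase pathway 17 fell and 3 rose, with a median of -0.27 (all 12 libraries: 6 and 1). Myc, a growth-promoting transcription factor, stood at 617, 614.5 and 604 CPM in NC and 314, 319 and 317 CPM in Blank (-0.95 ± 0.02, adjusted p = 0.414 in the fit of all 12 libraries). Dusp4, a phosphatase that switches off ERK, fell from 49.6 to 27.4 CPM (-0.86 ± 0.05). The ERK-dependent factor Etv5 went the opposite way, from 65.2 to 94.7 CPM (0.54 ± 0.04).

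Genes induced by interferon rose in part. The list held 34 genes, 32 of them tested, and 17 rose, 6 at least 2-fold, 6 fell and 9 did not pass, with a median of 0.25 (all 12 libraries: 8 rose, 4 fell). Oas2, which senses double-stranded RNA and makes the activator of RNase L, stood at 1.19, 1.13 and 1.54 CPM in NC and 10.5, 11.3 and 12.1 CPM in Blank (3.12 ± 0.15, adjusted p = 1.95e-31). It was 8.72-fold higher in Blank, the largest rise among genes of at least 5 CPM on average whose groups did not overlap. Ifi44 was at 0.686, 1.01 and 0.771 CPM in NC and 4.99, 5.05 and 5.13 CPM in Blank (2.61 ± 0.20). Their relatives Oas1a (from 6.94 to 13.5 CPM), Oasl1 (from 3.22 to 7.98 CPM) and Oasl2 (from 6.32 to 14.6 CPM) rose as well, with log2 fold changes of 0.96, 1.31 and 1.21. So did Irf9, the DNA-binding part of the interferon-activated ISGF3 complex (from 4.8 to 9.71 CPM, 1.01 ± 0.12), and Isg15, a ubiquitin-like modifier (from 4.28 to 7.87 CPM, 0.88 ± 0.12). Among the members that did not pass was Ifit3, a classic interferon-induced gene (0.09 ± 0.24, adjusted p = 0.74). The MHC class I genes moved the other way: H2-K1 stood at 212, 216 and 222 CPM in NC and 142, 144 and 144 CPM in Blank (-0.60 ± 0.03), H2-D1 fell from 818 to 602 CPM (-0.44 ± 0.02) and B2m, their shared light chain, from 517 to 391.5 CPM (-0.40 ± 0.02). The class I genes and the Oas family have close relatives with which reads may be shared. Cd274, which encodes PD-L1, fell from 13.0 to 9.42 CPM (-0.47 ± 0.09).

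Targets of ATF4 rose together in Blank. Of 38 listed genes 36 were tested, and 29 rose, 11 of them at least 2-fold, 3 fell and 4 did not pass, with a median of 0.61 (all 12 libraries: 13 rose, 0 fell). Atf4 itself stood at 234, 246 and 248 CPM in NC and 592, 615 and 613 CPM in Blank (1.32 ± 0.03, adjusted p = 1.71e-57). Chac1, an enzyme that degrades glutathione and a common marker of the response, stood at 3.31, 3.51 and 3.50 CPM in NC and 16.9, 18.4 and 15.7 CPM in Blank (2.30 ± 0.11, adjusted p = 7.08e-32). Trib3, a pseudokinase that holds ATF4 back, was at 16.5, 15.5 and 16.8 CPM in NC and 48.6, 49.9 and 53.8 CPM in Blank (1.64 ± 0.06), and the transcription factor Atf5 at 9.67, 8.80 and 9.61 CPM in NC and 35.8, 34.1 and 37.9 CPM in Blank (1.94 ± 0.07). The 6 libraries fell into 2 sets without overlap for each of these 4 genes.

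Chac1 and Asns are shown because their promoters carry the element that ATF4 binds with a C/EBP partner. The sequences are from RefSeq (GRCm38.p6), chr2:119350992-119351091 on the plus strand for Chac1 and chr6:7693213-7693312 on the minus strand for Asns, each 100 bases long and given in the direction of the gene. They end 151 and 4 bases before the start, and capitals mark TGATGNAA on either strand.
Chac1: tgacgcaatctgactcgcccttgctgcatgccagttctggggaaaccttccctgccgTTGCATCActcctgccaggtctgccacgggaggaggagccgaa
Asns: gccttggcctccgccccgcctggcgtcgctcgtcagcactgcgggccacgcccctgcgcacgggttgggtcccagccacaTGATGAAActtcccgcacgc
The element occurred in 10 of the 30 tested list genes with an entry (Atf3, Trib3, Chac1, Nupr1, Asns, Pycr1, Slc1a4, Slc7a11, Aars and Gars), in 2.62% of all tested genes with one and in 3.97% of all windows. Genes with the element went different ways: Pycr1 fell (-0.42 ± 0.11) and Atf3 did not pass (-0.16 ± 0.11, adjusted p = 0.189).

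The ATF4 list also holds enzymes that make amino acids and carriers that import them. The serine pathway rose at each of its 3 steps, with Phgdh at 509, 485 and 501 CPM in NC and 741, 731 and 727 CPM in Blank (0.56 ± 0.02), Psat1 from 177 to 312.5 CPM (0.82 ± 0.03) and Psph from 22.3 to 55.5 CPM (1.32 ± 0.05). Mitochondrial folate enzymes, which use serine as a carbon source, rose with them: Shmt2 stood at 132.5, 132 and 139 CPM in NC and 260.2, 265 and 253 CPM in Blank (0.95 ± 0.03) and Mthfd2 at 111, 112 and 113 CPM in NC and 262, 262 and 254 CPM in Blank (1.21 ± 0.03). Asns (asparagine synthetase) stood at 156, 152 and 154 CPM in NC and 271, 281 and 279 CPM in Blank (0.85 ± 0.03), and Cth, which makes cysteine from cystathionine, at 4.62, 4.93 and 4.63 CPM in NC and 15.7, 16.7 and 15.2 CPM in Blank (1.74 ± 0.10). The amino acid carriers Slc1a4 (from 32.8 to 74.9 CPM, 1.19 ± 0.04), Slc7a5 (from 182 to 323.5 CPM, 0.83 ± 0.03) and Slc7a11 (from 99.9 to 149 CPM, 0.58 ± 0.03) rose. Ddit3 (CHOP), the factor linked to cell death in prolonged stress, was at 24.5, 23.7 and 27.5 CPM in NC and 30.5, 29.4 and 28.8 CPM in Blank (0.23 ± 0.06), a small rise beside those above. Ddit4, an inhibitor of mTORC1 that low oxygen also induces, fell from 151 to 131 CPM (-0.21 ± 0.03). Phgdh, Psat1, Shmt2, Mthfd2, Asns, Slc7a5, Slc7a11, Ddit3 and Ddit4 lost their calls with all 12 libraries (adjusted p of 0.138 to 0.703). Cebpb did not pass (-0.16 ± 0.48, adjusted p = 0.786). NC held 27.9, 26.9 and 30.2 CPM and Blank 31.1, 9.47 and 35.5 CPM, with replicate 2 of Blank far below the other 5 libraries. Without Blank replicate 2 Cebpb was called higher (log2 fold change of 0.24, adjusted p = 0.00132).

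**Figure D3:**
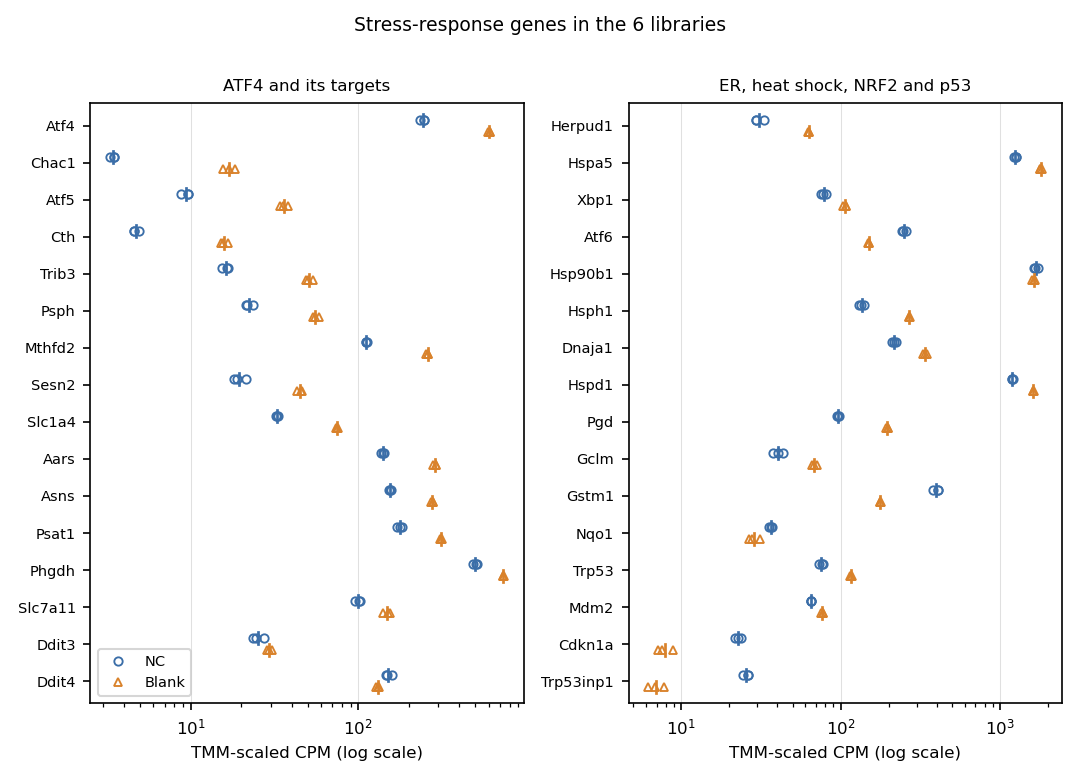
Level of stress-response genes in each library (TMM-scaled CPM, log axis), with circles for NC, triangles for Blank and a tick at each group mean. On the left nearly all ATF4 targets are higher in Blank, with Ddit4 the exception shown, and on the right the ER, NRF2 and p53 genes go both ways.

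Chaperones rose by smaller steps. In the endoplasmic reticulum (ER) list 13 of 24 tested genes rose, 7 fell and 4 did not pass, with a median of 0.18 (all 12 libraries: 2 rose, 1 fell). Hspa5 (BiP), the main ER chaperone, stood at 1249.8, 1252 and 1227 CPM in NC and 1785, 1839 and 1781 CPM in Blank (0.54 ± 0.02, adjusted p = 0.315 in the fit of all 12 libraries). Herpud1, part of the machinery that removes misfolded ER proteins, stood at 29.6, 29.3 and 33.1 CPM in NC and 63.4, 62.3 and 62.9 CPM in Blank (1.04 ± 0.05) and was the 1 gene of the list past 2-fold. Xbp1, the transcription factor that IRE1 splices, rose from 78.2 to 106 CPM (0.44 ± 0.04). Atf6, another ER stress sensor, fell from 248 to 149.9 CPM (-0.73 ± 0.03), Pdia4 fell from 427 to 354 CPM, and Hsp90b1 (GRP94) did not pass (-0.05 ± 0.02, adjusted p = 0.0735) but was called lower without NC replicate 2 (adjusted p = 0.0248). The ER stress element, CCAAT and CCACG spaced by any 9 bases, occurred in 8 of the 20 tested list genes with a promoter entry, against 0.185% of all tested genes and 0.119% of all windows.

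Cytosolic and mitochondrial heat shock chaperones rose without exception among those called: 16 of 21 tested rose, 0 fell and 5 did not pass, with a median of 0.23. Hsph1 (HSP110), which recharges HSP70, stood at 141, 134 and 131 CPM in NC and 270.4, 267.5 and 269 CPM in Blank (0.99 ± 0.03). Dnaja1, an HSP40 cochaperone, stood at 224, 209.6 and 215 CPM in NC and 329, 346 and 338 CPM in Blank (0.65 ± 0.03), and the mitochondrial chaperonin Hspd1 at 1212, 1186 and 1182 CPM in NC and 1612, 1629.9 and 1604.5 CPM in Blank (0.44 ± 0.02). The stress-inducible Hspa1b rose from 8.65 to 10.9 CPM (0.33 ± 0.10), with the reservation that its reads cannot be told from those of its near-identical copy Hspa1a. In the fit of all 12 libraries 1 gene of this list was called higher and 0 lower.

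Redox and p53 targets did not move as blocks. Of 27 NRF2 targets 9 rose and 13 fell, with a median of -0.09 (all 12 libraries: 4 fell, 1 rose). Pgd, of the pentose phosphate pathway that supplies NADPH, stood at 97.2, 96.8 and 94.3 CPM in NC and 198, 198 and 193 CPM in Blank (1.03 ± 0.03), and Gclm, which helps make glutathione, at 43.6, 40.6 and 37.7 CPM in NC and 68.2, 66.2 and 70.6 CPM in Blank (0.75 ± 0.05). The classic targets Nqo1 (from 36.4 to 28.5 CPM, -0.35 ± 0.06), Hmox1 (from 32.5 to 27.0 CPM, -0.27 ± 0.06) and Txnrd1 (from 388 to 295.5 CPM, -0.39 ± 0.02) fell, and Gstm1, a glutathione transferase, fell from 398 to 176.5 CPM (-1.17 ± 0.03). Of 22 p53 targets 6 rose and 10 fell (all 12 libraries: 5 fell, 2 rose). Cdkn1a (p21), the cell-cycle inhibitor, stood at 22.8, 21.6 and 23.7 CPM in NC and 8.87, 7.55 and 7.17 CPM in Blank (-1.53 ± 0.08), and Trp53inp1 at 26.1, 24.3 and 26.1 CPM in NC and 6.20, 6.85 and 7.82 CPM in Blank (-1.87 ± 0.08). Mdm2, which degrades p53, rose from 65.4 to 76.7 CPM (0.23 ± 0.04), as did Bax from 43.8 to 54.6 CPM (0.32 ± 0.04) and Trp53 itself from 75.7 to 117 CPM (0.62 ± 0.03). The low-expressed death receptor Fas stood at 1.62, 1.96 and 2.25 CPM in NC and 0.116, 0.174 and 0.117 CPM in Blank. Fas passed the filter on low counts through NC alone, so the direction of its change was fixed by passing. Ccng1, another p53 target, did not pass (0.01 ± 0.04, adjusted p = 0.758).

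Genes induced by low oxygen through HIF were lower in Blank. The list of hypoxia and glycolysis genes held 36, of which 35 were tested, and 27 fell, 8 at least 2-fold, 4 rose and 4 did not pass, with a median of -0.60 (all 12 libraries: 12 fell, 0 rose). Ero1a, an ER oxidase, stood at 738, 729 and 761 CPM in NC and 247, 253 and 249 CPM in Blank (-1.57 ± 0.02, adjusted p = 1.4e-63). Ndrg1, a common hypoxia marker, stood at 200.3, 202 and 216 CPM in NC and 71.5, 75.7 and 70.4 CPM in Blank (-1.51 ± 0.03). Bnip3, a mitophagy receptor, was at 265, 273 and 273 CPM in NC and 99.8, 106 and 112 CPM in Blank (-1.35 ± 0.03), and Egln3 (PHD3), the oxygen-sensing hydroxylase that HIF induces in feedback, at 819.8, 837 and 851 CPM in NC and 369, 374 and 382.5 CPM in Blank (-1.16 ± 0.02). For all 4 genes no Blank library reached an NC library.

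The promoters of Bnip3 and Egln3 are shown with the HIF core letters ACGTG in capitals, in GRCm38.p6 from RefSeq, minus strand, at chr7:138909597-138909696 and chr12:54204025-54204124. The stretches are 100 bases long and end 91 and 151 bases before the start.
Bnip3: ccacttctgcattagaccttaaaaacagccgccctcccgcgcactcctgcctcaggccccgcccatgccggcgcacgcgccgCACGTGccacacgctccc
Egln3: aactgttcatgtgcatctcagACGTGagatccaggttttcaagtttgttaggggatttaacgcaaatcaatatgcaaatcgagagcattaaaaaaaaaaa
In Bnip3 the capitals read as ACGTG on both strands, so its 2 matches overlap. The letters occurred in 22 of the 32 tested list genes with an entry, in 29.3% of all tested genes with one and in 19.6% of all windows. They are short and common, and Ldha and Pkm, which rose, hold them too.

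Glucose transporters and glycolytic enzymes of the same list went both ways. Slc2a3, a glucose transporter, stood at 13.1, 11 and 12.7 CPM in NC and 3.07, 3.95 and 2.27 CPM in Blank (-1.98 ± 0.13), and the neuronal enolase Eno2 at 19.97, 21.1 and 20.9 CPM in NC and 7.13, 6.68 and 5.95 CPM in Blank (-1.65 ± 0.09). Pgk1 stood at 3365.5, 3217.5 and 3272.5 CPM in NC and 2124, 2166 and 2179.5 CPM in Blank (-0.61 ± 0.02). Slc2a1, the widespread glucose transporter, fell from 198 to 165 CPM (-0.27 ± 0.03). Other core enzymes rose: Pkm stood at 3211, 3372 and 3441 CPM in NC and 3897, 3916 and 3874 CPM in Blank (0.22 ± 0.02), Tpi1 rose from 571 to 701 CPM (0.30 ± 0.02) and Ldha from 1343.5 to 1485 CPM (0.14 ± 0.02). Gapdh was called lower by a small step (-0.05 ± 0.02, adjusted p = 0.0435) with overlapping groups. It lost the call without any 1 library other than NC replicate 1 (adjusted p of 0.0942 to 0.449) and with the replicate number as a block (adjusted p = 0.0585). Car9, a carbonic anhydrase often used as a hypoxia marker, lay between 0.525 and 1.01 CPM in each library and did not pass (-0.37 ± 0.32, adjusted p = 0.289).

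Cholesterol synthesis was higher in Blank at most of its steps. All 20 listed enzymes were tested, and 16 rose, 0 fell and 4 did not pass, with a median of 0.52 (all 12 libraries: 7 rose, 0 fell). None reached a 2-fold change. Hmgcs1, of an early step, stood at 82.7, 74.0 and 76.1 CPM in NC and 94.2, 87.6 and 92.4 CPM in Blank (0.24 ± 0.04). Further down, Fdps, which makes farnesyl diphosphate, stood at 48.4, 46.7 and 45.5 CPM in NC and 89.5, 86.2 and 90.2 CPM in Blank (0.92 ± 0.04). Among the enzymes that turn squalene into cholesterol, Sqle was at 45.1, 49.6 and 46.2 CPM in NC and 67.1, 69.6 and 68.2 CPM in Blank (0.54 ± 0.04) and Cyp51 at 42.6, 39.9 and 39.0 CPM in NC and 68.7, 72.1 and 70.8 CPM in Blank (0.80 ± 0.04). The groups did not overlap for any of these 4. The 4 that did not pass were Fdft1 (0.08 ± 0.05), Mvd (0.03 ± 0.07), Sc5d (-0.03 ± 0.03) and Hsd17b7 (-0.09 ± 0.07), but on log2(TPM + 1) Fdft1 and Sc5d were called higher (log2 fold changes of 0.20 and 0.15, adjusted p of 0.00329 and 0.000969). Tm7sf2, called higher, did not exceed 1.57 CPM in any library and lost its call without NC replicate 1 (adjusted p = 0.138) and without Blank replicate 1 (adjusted p = 0.0509).

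Both SREBP genes were higher in Blank. Srebf1, the SREBP gene that favours fatty acid synthesis, stood at 49.2, 54.7 and 53.6 CPM in NC and 115, 112 and 117 CPM in Blank (1.13 ± 0.04, adjusted p = 5.33e-41), and Srebf2, which favours sterols, at 104, 102 and 103 CPM in NC and 165, 165 and 165.5 CPM in Blank (0.68 ± 0.03). Scap, the escort that carries SREBP to the Golgi, rose from 97.6 to 167 CPM (0.78 ± 0.03). Its retention partners diverged, since Insig1 rose from 79.1 to 98.2 CPM (0.31 ± 0.04) and Insig2 fell from 111 to 74.2 CPM (-0.58 ± 0.03). Over the list 6 of 12 tested genes rose and 4 fell (all 12 libraries: 5 and 2). Of 10 genes of cholesterol export and the sterol sensor LXR 6 fell and 4 rose (all 12 libraries: 3 fell, 2 rose). Pltp, which transfers phospholipids, stood at 81.1, 76.5 and 78.6 CPM in NC and 32.4, 33.7 and 31.4 CPM in Blank (-1.27 ± 0.04), and Npc2, which hands cholesterol out of lysosomes, fell from 274 to 156 CPM (-0.81 ± 0.03). Mylip, a ubiquitin ligase that LXR induces, fell from 2.48 to 1.34 CPM (-0.88 ± 0.21, adjusted p = 0.0962 in the fit of all 12 libraries). The sterol element TCACNCCAC was found in the window of 1 of 15 cholesterol enzymes with an entry (Hmgcs1) and in 1.32% of all tested genes with one.

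Desaturation led the changes in fatty acid genes. In the list of fatty acid and triglyceride synthesis 16 of 26 tested genes rose, 3 at least 2-fold, 6 fell and 4 did not pass, with a median of 0.29 (all 12 libraries: 6 rose, 4 fell). Scd2, a desaturase that makes monounsaturated fatty acids, stood at 819, 788 and 788 CPM in NC and 1914, 1933 and 1936 CPM in Blank (1.27 ± 0.02, adjusted p = 7.15e-59). Its paralogue Scd1 stood at 198, 194 and 188 CPM in NC and 434, 449 and 441 CPM in Blank (1.19 ± 0.03). Scd1 and Scd2 are close paralogues, and how the authors' counts split shared reads is not given. Fads2, which starts the synthesis of long polyunsaturated fatty acids, stood at 39.3, 37.5 and 39.0 CPM in NC and 126, 118 and 131 CPM in Blank (1.70 ± 0.04), and Fads1, a later desaturase of that route, rose from 70.5 to 107 CPM (0.60 ± 0.04).

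Genes that build and activate fatty acids rose less. Fasn, the synthase, stood at 173, 188 and 184 CPM in NC and 249, 249.9 and 257 CPM in Blank (0.47 ± 0.03), Acaca, which supplies malonyl-CoA, rose from 88.5 to 116 CPM (0.39 ± 0.03), and Acly, which makes cytosolic acetyl-CoA from citrate, from 121 to 150.2 CPM (0.31 ± 0.03). The acyl-CoA synthetases Acsl5 (from 81.9 to 153.5 CPM, 0.91 ± 0.03) and Acsl3 (from 78.0 to 136.5 CPM, 0.81 ± 0.03) rose too. Acacb, whose malonyl-CoA restrains fatty acid oxidation at mitochondria, fell from 15 to 6.47 CPM (-1.21 ± 0.10), and Acss2, which makes acetyl-CoA from acetate, from 23.8 to 14.7 CPM (-0.70 ± 0.07). Oxidation genes went mostly the other way: of 18 tested 11 fell and 3 rose, with a median of -0.12 (all 12 libraries: 5 fell, 0 rose). Cpt1a, the gate to mitochondria, stood at 79.9, 88.0 and 85.5 CPM in NC and 68.6, 69.6 and 70.6 CPM in Blank (-0.28 ± 0.04). The 2 oxidation genes past 2-fold, Ucp2 and Pdk4, did not exceed 1.90 CPM in any library.

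**Figure D4:**
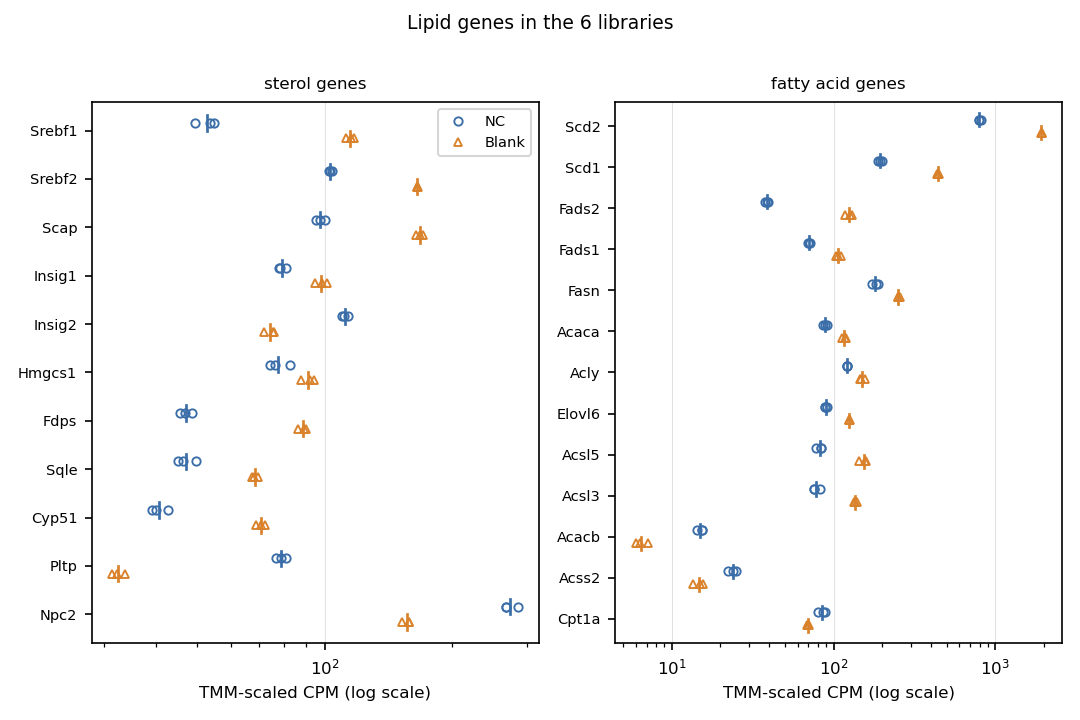
Level of sterol and fatty acid genes in each library (TMM-scaled CPM, log axis), with circles for NC, triangles for Blank and a tick at each group mean. Srebf1, Scd1, Scd2 and Fads2 are clearly higher in Blank, while Insig2, Pltp, Npc2, Acacb, Acss2 and Cpt1a are lower.

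Matrix genes were lower in Blank across several classes, with exceptions in the fibrillar collagens. Of 30 collagen chains 23 were tested, and 18 fell, 8 at least 2-fold, 2 rose and 3 did not pass, with a median of -0.64 (all 12 libraries: 10 fell, 0 rose). Col1a1, a chain of the main fibrillar collagen, stood at 82.3, 81.1 and 77.7 CPM in NC and 10.6, 9.47 and 12.3 CPM in Blank (-2.90 ± 0.06, adjusted p = 9.79e-55), and its partner Col1a2 at 12.4, 11.9 and 13.4 CPM in NC and 3.83, 5.34 and 3.85 CPM in Blank (-1.53 ± 0.11). Col3a1, also fibrillar and at a far higher length-corrected level than Col1a1 (557 against 21.6 TPM in NC), moved the other way. It stood at 1869, 1976 and 1956 CPM in NC and 2444, 2429 and 2493 CPM in Blank (0.34 ± 0.02). Col8a1 (from 134 to 35.7 CPM, -1.91 ± 0.04), Col5a3 (from 127 to 38.5 CPM, -1.73 ± 0.04) and Col12a1 (from 89.9 to 33.2 CPM, -1.44 ± 0.04) fell. Among further collagens, Col6a3 stood at 839.6, 852 and 839.6 CPM in NC and 511, 503 and 512 CPM in Blank (-0.73 ± 0.02), Col18a1, the source of endostatin, fell from 647 to 361 CPM (-0.84 ± 0.02) and Col4a1, of basement membrane, fell from 942 to 824 CPM (-0.19 ± 0.02). Fibroblasts make these collagens too. Their marker sum was higher in Blank and rests on Col3a1, while most tested markers fell, among them Lum (mean of 111 CPM in NC and 58.8 CPM in Blank), Dcn (18.2 and 9.61), Des (20.8 and 6.41) and Acta2 (6.15 and 2.69). Pdgfra was higher in Blank, at 105 and 173 CPM, and the part of fibroblasts in the result was not tested.

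Laminins and adhesive glycoproteins followed. In the laminin and basement membrane list 12 of 13 tested genes fell, 0 rose and 1, Lama1, did not pass (0.02 ± 0.04, adjusted p = 0.691). In the fit of all 12 libraries, which tested 17, 9 fell and 0 rose. Lama5, of the most widespread laminins, stood at 378.5, 385 and 388 CPM in NC and 174, 170.5 and 177 CPM in Blank (-1.14 ± 0.03), and Lamc1, the common gamma chain, at 512, 511 and 507 CPM in NC and 294.5, 296 and 303 CPM in Blank (-0.78 ± 0.02). Among 30 tested glycoproteins and proteoglycans 20 fell and 7 rose, with a median of -0.40 (all 12 libraries: 11 and 0). Fn1 (fibronectin), an adhesive protein for integrins, stood at 2167, 2174 and 2180.1 CPM in NC and 787, 779.5 and 795 CPM in Blank (-1.47 ± 0.02, adjusted p = 1.4e-63). Thbs1 (thrombospondin 1), an inhibitor of vessel growth and activator of TGF-beta, stood at 363, 349 and 365 CPM in NC and 103, 102 and 104 CPM in Blank (-1.80 ± 0.03), and the proteoglycan biglycan (Bgn) at 104, 101 and 114 CPM in NC and 31.1, 30.7 and 30.6 CPM in Blank (-1.79 ± 0.04). All 3 fell in every Blank library relative to every NC library. Tnc (tenascin C) rose from 8.18 to 13.5 CPM (0.72 ± 0.09) and Fbn1 (fibrillin 1) from 129 to 172 CPM (0.42 ± 0.03). Eln (elastin) was called higher, from 0.312, 0.178 and 0.237 CPM to 1.33, 1.28 and 1.34 CPM. It passed the filter on low counts through Blank alone, so the direction of its change was fixed by passing.

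Genes that crosslink or modify collagen included both falls and rises. Tgm2, a transglutaminase that crosslinks matrix, stood at 30.1, 31.9 and 32.1 CPM in NC and 4.58, 4.59 and 4.26 CPM in Blank (-2.81 ± 0.09). The lysyl hydroxylases Plod1 (from 375 to 175 CPM, -1.10 ± 0.03) and Plod2 (from 818 to 394.5 CPM, -1.05 ± 0.02) and the prolyl hydroxylases P4ha1 (from 456 to 270.5 CPM, -0.75 ± 0.02) and P4ha2 (from 97.1 to 35.6 CPM, -1.45 ± 0.04) fell. P4ha1 and P4ha2 are members of the hypoxia list too. Pcolce, which helps cleave procollagen, rose from 346 to 662 CPM (0.94 ± 0.02), as did the collagen chaperone Serpinh1 from 590.5 to 716 CPM (0.28 ± 0.02). Over the list 10 of 17 tested genes fell and 3 rose, with a median of -0.16 (all 12 libraries: 3 fell, 1 rose).

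Matrix proteases and some of their inhibitors fell together. Of 31 proteases 22 were tested, and 17 fell, 6 at least 2-fold, and 2 rose, with a median of -0.47 (all 12 libraries: 6 fell, 0 rose). Mmp9 (gelatinase B), which neutrophils also carry, stood at 14.7, 16.5 and 17.0 CPM in NC and 1.68, 1.22 and 0.70 CPM in Blank (-3.73 ± 0.14). Mmp13, a collagenase, stood at 161, 171 and 178.5 CPM in NC and 29.7, 31.3 and 32.4 CPM in Blank (-2.45 ± 0.04, adjusted p = 2.96e-57), and Plau (urokinase), which activates plasminogen, at 307.5, 314 and 313 CPM in NC and 112, 118 and 117 CPM in Blank (-1.43 ± 0.03). Mmp14, the membrane-bound protease, fell from 209 to 162 CPM (-0.37 ± 0.03), and Mmp3 (stromelysin 1) rose from 58.9 to 74.1 CPM (0.33 ± 0.04). Of 6 tested inhibitors 5 fell and 1 rose (all 12 libraries: 3 fell, 0 rose). Timp2 fell from 365 to 251 CPM (-0.54 ± 0.03) and Timp1 rose from 18.9 to 26.3 CPM (0.48 ± 0.06).

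**Figure D5:**
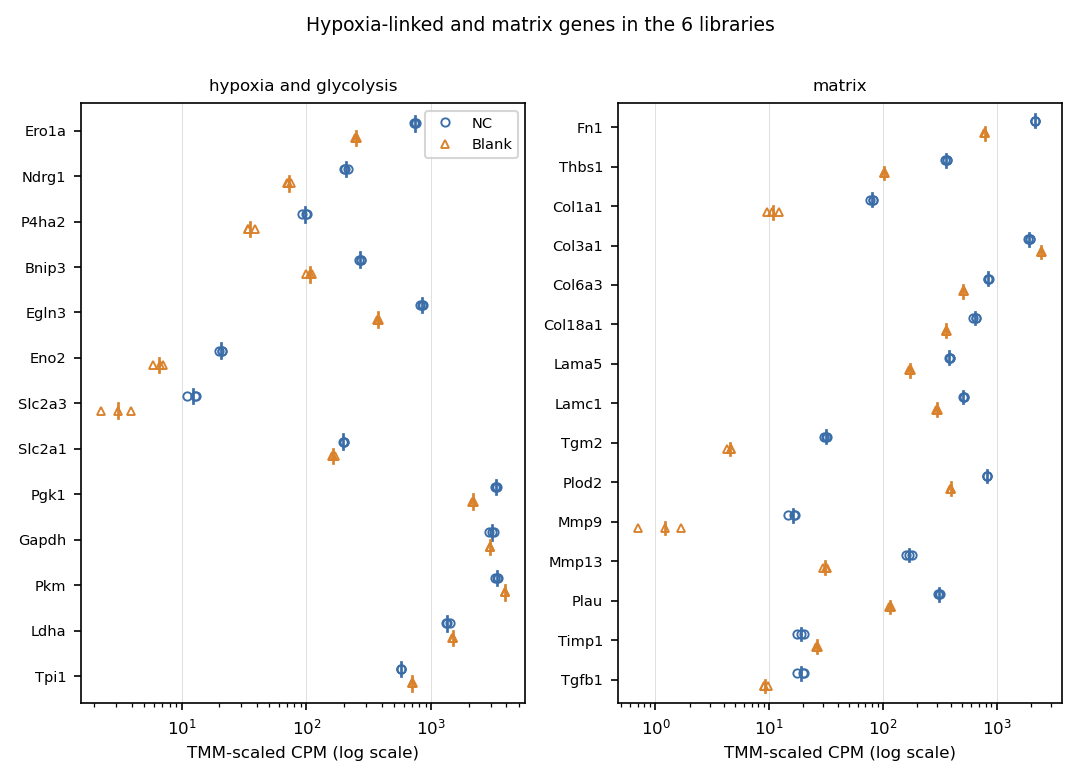
Level of hypoxia-linked and matrix genes in each library (TMM-scaled CPM, log axis), with circles for NC, triangles for Blank and a tick at each group mean. Most genes are lower in Blank, among them Ero1a, Fn1, Thbs1 and Mmp13, while Pkm, Ldha, Tpi1, Col3a1 and Timp1 are higher.

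Integrins, the receptors for matrix, and TGF-beta genes were lower as well. In the integrin list 9 of 11 tested genes fell and 1 rose (all 12 libraries: 4 fell, 0 rose). Itga7, a laminin receptor subunit, stood at 81.9, 86.6 and 84.7 CPM in NC and 37.8, 37.8 and 39.3 CPM in Blank (-1.14 ± 0.04), and Itgb3, part of the vitronectin receptor, fell from 11 to 4.28 CPM (-1.35 ± 0.11). Itgb1, the shared chain of most matrix-binding integrins, fell from 937 to 782 CPM (-0.26 ± 0.02). In the TGF-beta list 12 of 17 tested genes fell, 7 at least 2-fold, and 0 rose, with a median of -0.93 (all 12 libraries: 8 fell, 0 rose). Tgfb1 stood at 20.03, 19.6 and 17.4 CPM in NC and 8.93, 8.94 and 9.80 CPM in Blank (-1.04 ± 0.08) and Tgfb2 at 9.24, 10.6 and 10.0 CPM in NC and 3.59, 3.60 and 3.27 CPM in Blank (-1.51 ± 0.12), while Tgfb3, at the highest length-corrected level of the 3 ligands (23.3 TPM in NC), did not pass (0.05 ± 0.05, adjusted p = 0.318). Id2 (from 20.9 to 4.11 CPM, -2.35 ± 0.10) and Id3 (from 38.7 to 15.6 CPM, -1.31 ± 0.06), inhibitors of differentiation that BMP signals induce, fell. Thbs1, given above, is a target of TGF-beta too.

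Markers of epithelial and mesenchymal state had a median near 0, at -0.07, but included large falls. Of 14 tested 6 fell, 2 rose and 6 did not pass (all 12 libraries: 1 fell, 1 rose). Falls of at least 2-fold were 2 of the 14 (14.3%, beside 7.4% of all genes), and the lowest log2 fold change was -1.88. On the deposited TPM the numbers called in each direction were equal, at 3. Vim (vimentin), the mesenchymal filament, stood at 2107, 2156 and 2102 CPM in NC and 1651, 1655 and 1677 CPM in Blank (-0.35 ± 0.02), and Krt8, a simple-epithelial keratin, at 171, 180.0 and 173 CPM in NC and 310.0, 314 and 316 CPM in Blank (0.84 ± 0.03). Krt8 was the largest rise of the list. The epithelial transcription factor Grhl2 was called lower, by a larger step than the rise of Krt8, so epithelial genes did not share a direction. Cdh1 and Cdh2, the cadherins that usually mark the 2 states, did not pass the filter on low counts. S100a4, a calcium-binding protein linked to motility, rose from 926 to 1196.5 CPM (0.37 ± 0.02, adjusted p = 0.786 in the fit of all 12 libraries).

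Cell division genes were higher in Blank, by modest amounts. Of 27 DNA replication genes 25 rose, 1 fell and 1 did not pass, with a median of 0.34, and of 25 mitosis genes 17 rose and 1 fell, with a median of 0.19. Tyms, which makes thymidylate, stood at 35.4, 38.6 and 37.4 CPM in NC and 71.7, 72.1 and 75.1 CPM in Blank (0.97 ± 0.04). Mcm5, a subunit of the replicative helicase, stood at 140.3, 142 and 141 CPM in NC and 248, 237.5 and 248.5 CPM in Blank (0.79 ± 0.03), and Rrm2, of ribonucleotide reductase, at 303, 301 and 301 CPM in NC and 481, 470.4 and 466 CPM in Blank (0.65 ± 0.02). Cdc20, which activates the anaphase-promoting complex, stood at 70.9, 74.5 and 73.5 CPM in NC and 159, 157 and 151.5 CPM in Blank (1.09 ± 0.03), and Plk1, a mitotic kinase, rose from 66.6 to 112 CPM (0.75 ± 0.04). Mki67, the usual marker of dividing cells, did not pass (-0.02 ± 0.02, adjusted p = 0.432), with a sign that turned on the deposited TPM, and Top2a, the topoisomerase of dividing cells, was called lower by a small step (-0.06 ± 0.02, adjusted p = 0.0194) with overlapping groups. Top2a lost the call without NC replicate 1 or 2 or Blank replicate 2 or 3 (adjusted p of 0.0525 to 0.161). In the fit of all 12 libraries 1 replication gene and 0 mitosis genes were called higher.

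Of the genes of ferroptosis, a form of death by iron-dependent lipid peroxidation named in the title of the series, 3 of 8 were called higher and 5 lower (all 12 libraries: 1 and 2). Tfrc, the receptor that brings in iron, stood at 283, 288 and 284 CPM in NC and 522, 514 and 525 CPM in Blank (0.87 ± 0.02, adjusted p = 1.38e-46). Slc7a11, the cystine carrier, and Ptgs2 and Hmox1, used as markers of the process, are given above. Aifm2 (FSP1), which protects lipids independently of glutathione, stood at 27.9, 29.4 and 31.6 CPM in NC and 15.7, 18 and 18.7 CPM in Blank (-0.76 ± 0.07). Gpx4, the peroxidase that removes lipid peroxides, was at 181, 202 and 204 CPM in NC and 181, 173 and 188 CPM in Blank (-0.12 ± 0.04, adjusted p = 0.0233), with overlapping groups. Its call was lost without NC replicate 3, Blank replicate 1 or Blank replicate 2 (adjusted p of 0.0508, 0.0788 and 0.0763) and on the deposited TPM. Acsl4, which loads membranes with polyunsaturated lipid, was at 121, 119 and 119.5 CPM in NC and 125, 129.6 and 123 CPM in Blank (0.07 ± 0.03, adjusted p = 0.0284), and its call was lost under 8 alternatives. Fth1 (ferritin heavy chain) differed by -0.09.

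Beyond these groups, the 12 largest falls and 12 largest rises among genes averaging at least 5 CPM, with libraries that did not overlap, added further genes. Fmo2, a flavin monooxygenase, stood at 11.6, 11.8 and 9.78 CPM in NC and 0.174, 0.407 and 0.117 CPM in Blank (-5.53 ± 0.22), and C3, the central complement component, at 131, 138 and 131 CPM in NC and 4.87, 5.63 and 4.72 CPM in Blank (-4.71 ± 0.06, adjusted p = 6.98e-70). Serping1, which inhibits complement component C1, stood at 11.8, 10.4 and 9.96 CPM in NC and 0.348, 0.290 and 0.525 CPM in Blank (-4.76 ± 0.20). Fmo2 and Serping1, with 12 and 20 counts in Blank, passed the filter on low counts through NC alone, so the direction of their change was fixed by passing. Enpp2 (autotaxin), which makes lysophosphatidic acid, stood at 161, 157 and 154.5 CPM in NC and 19.6, 15.6 and 18.1 CPM in Blank (-3.15 ± 0.05), and Padi3, a protein deiminase, at 25.7, 25.3 and 23.7 CPM in NC and 2.38, 1.97 and 1.98 CPM in Blank (-3.56 ± 0.11). Prtn3 (proteinase 3), a protease of neutrophil granules, stood at 18.5, 19 and 19 CPM in NC and 1.39, 1.86 and 2.62 CPM in Blank (-3.26 ± 0.12), and Cd74, the MHC class II invariant chain, at 23.5, 24.8 and 23.9 CPM in NC and 2.32, 2.44 and 3.03 CPM in Blank (-3.21 ± 0.11). Cd74 carried most of the leukocyte marker sum of NC given above. Beside Prtn3, the neutrophil marker Ly6g was lower in Blank too (6.30 and 3.10 CPM, as above). S100a8 had 20 counts over the NC libraries and 9 over the Blank libraries, and S100a9 had 0 in both. The part of neutrophils in the result was not tested. Further rises were Pde4b, a cAMP phosphodiesterase (3.62, 3.92 and 4.51 CPM in NC and 15.4, 16.7 and 16.3 CPM in Blank, 2.003 ± 0.11), Fbln5, an elastic-fibre protein (from 2.48 to 8.39 CPM, 1.76 ± 0.14), Atg9b, of autophagosome formation (from 4.36 to 14.1 CPM, 1.69 ± 0.11), Jade2, of a histone acetyltransferase complex (from 24.2 to 75.7 CPM, 1.64 ± 0.05), and Tmco4 (from 4.08 to 14.6 CPM, 1.84 ± 0.11).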

How the data were processed

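Poly(A) RNA of lung cancer tissue was captured on oligo(dT) beads and read by DNA nanoball sequencing, per the labels' protocols. The authors deposited 1 table of 70659 transcripts with estimated read counts (expected counts), TPM, FPKM and a normalized read count, a signal scaled per library, per the file headers. GRCm39, Bowtie2, DESeq2 1.4.5 and RSEM 1.3.1 are named in the submitters' processing notes. Not given in the sources used here are the tool behind each value, alignment settings and the use of strand, so a gene and an antisense or near-identical partner cannot be told apart.

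Expected counts were summed per Entrez gene and rounded. RefSeq's table for GRCm38.p6 gave symbols to 19155 of 19212 genes and was used for names and promoter sequences. The 57 others, with at most 0.342% of a library's counts, stayed in the fit. NC and Blank (3 libraries each) were fitted alone with edgeR 4.0.16 in R 4.3.3: filterByExpr by group, TMM scaling and the robust quasi-likelihood test, with a Benjamini-Hochberg adjusted p below 0.05 over 12087 genes as a call. Standard errors follow from the quasi-likelihood statistic. Depth was 16062806 to 17247348 counts per library. On simulated counts of this comparison over 12087 genes the test found 99% of the 2-fold and 98% of the 4-fold changes and made 15 false calls among 212, with far fewer genes changed than were called here. Replicate numbers in the titles did not pair the samples, so no block entered the main fit.

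The comparison, its members and the gene lists were chosen with earlier results of these data known. The HIF motif and the gene lists in the closing section were added later still. Named are Otub1 and the ferroptosis panel, up to 6 called members of each list by size of change with a mean of at least 1 CPM, the 12 largest rises and falls of at least 5 CPM with groups apart, and further list members whose role is explained. Some of these genes are not reported here. In the account of host markers CPM are of library totals, elsewhere TMM-scaled. Lists got counts and medians and no set test. In 37 lists 3 symbols had no entry in the table (Cxcl11, Mx1 and Mx2). Alternatives were other scalings (DESeq2 size factors, upper quartile, totals), filters and tests (DESeq2 1.42.0, limma-voom with limma 3.58.1), limma on log2 of deposited TPM (pseudocount 1 or 0.1) or FPKM (pseudocount 1), with values of at least 1 in 3 libraries, all 12 libraries, a replicate block, each library left out, a 2-fold threshold, and whole reads recovered from the deposited normalized counts (100% whole within 0.001).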

Additional observations from a re-analysis of the deposited data

How the results depend on the processing

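The libraries of a group may be technical repeats, and no setting separates lentivirus, saline and experiment. Calls higher and lower, 4477 and 4500 as reported, came to 4469 and 4510 with DESeq2 size factors, 4134 and 4816 with upper-quartile factors, 4014 and 4050 with the DESeq2 test, 4767 and 3538 on log2(TPM + 1), 4226 and 3769 on log2(FPKM + 1) and 4492 and 4510 on recovered whole reads. Leaving out 1 replicate gave 4312 to 4370 higher and 4351 to 4452 lower. These counts moved by over 1.5 times in 2 settings. Requiring a 2-fold change as well left 175 and 894, by construction. Those 2-fold counts were 95 and 327 on TPM with a pseudocount of 1 and 158 and 541 with one of 0.1, 68 and 273 on FPKM, 241 and 1373 with no filter and 106 and 967 with all 12 libraries. Fitting all 12 libraries, over 15304 genes, gave 760 and 1939, so that 28.2% of calls were higher. In that fit 2520 of the 8977 calls were kept in the same direction, none in the opposite one. The wider spread of the other groups enters that fit. Same-numbered libraries did not deviate together (correlations of 0.0927, -0.128 and -0.161 over 10097 genes), and the fit with the replicate number as a block called 4465 and 4482. Libraries of unlike number gave correlations of -0.194 to 0.282, the highest for NC replicate 2 with Blank replicate 3, and no block by another order was fitted. Otub1, which did not pass in any of these fits, changed sign with upper-quartile factors (-0.0001), with all 12 libraries (-0.0195) and without NC replicate 3 (-0.0042), with a range of -0.0042 to 0.0595 over libraries left out. Other genes that had not passed changed sign too: Ccng1 (-0.0171, -0.0363 and -0.0286 in those 3 settings, up to 0.0396 without NC replicate 1), Lama1 (-0.0111 and -0.0296 in the first 2, and -0.0107 without Blank replicate 1 to 0.0657 without Blank replicate 2), Mvd (-0.0013 and -0.0194 in the first 2), Mki67 (0.0313 and 0.0315 on TPM with pseudocounts of 1 and 0.1, and 0.0033 with no filter), Sc5d (0.152 and 0.154 on TPM, and 0.106 on FPKM) and Cebpb (-0.48 to 0.24 over libraries left out). The cause was not tested. Of the 295 genes that the naming rules and the text give, 118 lost their call in the fit of all 12 libraries and 1, Gapdh, with the replicate block, which changed no other call among them. Genes under 2 CPM rest on few reads. A gene nearly absent from 1 group passes the filter on low counts through the other group alone. Its direction is then fixed by passing.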

Other observations

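Further gene groups also moved together. Some of their members are counted in lists above too, such as Aars and Gars in the ATF4 list and Npc2 in the cholesterol export list. These lists were put together after values had been seen, so their counts are descriptions. The proteasome, which degrades ubiquitinated protein, was higher in Blank: of 31 subunit genes of the 20S core and 19S cap 30 rose and 1 fell, with a median of 0.56 and no 2-fold change (all 12 libraries: 17 rose, 0 fell). Psmc5, an ATPase of the cap, stood at 101, 94.5 and 99.6 CPM in NC and 189, 189 and 192 CPM in Blank (0.95 ± 0.03), and Psmd8 was the 1 that fell, from 99.1 to 81.7 CPM (-0.28 ± 0.04). Of 20 cytosolic aminoacyl-tRNA synthetases, which charge tRNAs and several of which ATF4 induces, 17 rose and 2 fell, with a median of 0.56 (all 12 libraries: 9 and 1). Tars rose from 81.0 to 143 CPM (0.82 ± 0.03) and Qars fell from 198 to 149 CPM (-0.41 ± 0.03). Lysosomal genes went the other way. Of 47 tested 38 fell, 3 rose and 6 did not pass, with a median of -0.48 (all 12 libraries: 23 fell, 0 rose). The protease gene Ctsd stood at 446, 454 and 454 CPM in NC and 230.0, 241 and 227 CPM in Blank (-0.96 ± 0.03) and Grn (progranulin) at 727, 729 and 731 CPM in NC and 368.5, 369.9 and 370.4 CPM in Blank (-0.98 ± 0.02), while Gusb rose from 84.3 to 101 CPM (0.26 ± 0.03).

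Complement genes were lower in Blank beyond C3 and Serping1, and so were the 3 of 8 acute-phase genes that were tested. Of 12 complement genes tested 9 fell, 6 at least 2-fold, and 1 rose, with a median of -1.09 (all 12 libraries: 8 fell, 0 rose). Serping1, C1s2 and Cd59a, with 20, 28 and 23 counts in Blank, passed the filter on low counts through NC alone. The direction of their change was fixed by passing, and all of them are among the 2-fold falls. C1s1, a protease of the classical pathway, stood at 154, 153 and 159.5 CPM in NC and 58.4, 58.6 and 56.6 CPM in Blank (-1.43 ± 0.03). Lcn2, a siderophore-binding protein that NF-kB induces through Nfkbiz, stood at 4.37, 5.29 and 5.04 CPM in NC and 0.116, 0.174 and 0.408 CPM in Blank (-4.36 ± 0.27), and Cp (ceruloplasmin), a copper-carrying ferroxidase, at 631, 624.5 and 634.5 CPM in NC and 323.5, 320.2 and 319 CPM in Blank (-0.97 ± 0.02). Lcn2 and Saa3, a further acute-phase gene, had 12 and 15 counts in Blank and passed the filter through NC alone. Of the acute-phase genes tested, only Cp could have been called in either direction. Txnip, which restrains glucose uptake and is induced by glucose through MondoA and ChREBP, stood at 1949, 2061 and 2038 CPM in NC and 301, 310.4 and 322 CPM in Blank (-2.70 ± 0.03, adjusted p = 1.35e-75). Its relative Arrdc4, under the same control, stood at 19.7, 19 and 17.9 CPM in NC and 4.70, 5.81 and 5.02 CPM in Blank (-1.86 ± 0.10). Both had every Blank library below every NC library. Wnt7b, a secreted Wnt ligand, rose from 23.7 to 59.2 CPM (1.31 ± 0.05). These genes were singled out after their values were seen.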
